A study of Mus musculus with 7 samples.

Results

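The genes described here are a named group of 42 that serve protein folding in the endoplasmic reticulum (ER) and the unfolded protein response. They were chosen by name, with earlier results of these data known. All 42 were found among the 23465 genes of the deposited gene tables. They were followed across the cell types of pancreatic islets from female C57BL/6 mice aged 10 weeks, with no treatment and no altered allele in any group. Both libraries analysed came from a modified 5' droplet single-cell assay in which dNTP was added and extension was prolonged, insulin cDNA was removed with a Cas9-based panel and the remaining cDNA was read on Nanopore sequencers, whose long reads can span whole transcripts. The groups were endothelial, stellate, alpha, delta, PP and beta cells of the same 2 libraries, named by the authors from clusters of these same counts, so every test between types is circular in part. The labels do not tell whether separate animals gave the libraries. The model holds a library term, so p-values measure only the spread left between these libraries after their common difference is removed. That spread may be technical.

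Proteins bound for secretion enter the ER through the Sec61 channel, fold there with chaperones and receive their disulfide bonds from protein disulfide isomerases that are recharged by ERO1 oxidases. Chains that fail are passed back to the cytosol for degradation. When unfolded chains build up, the membrane sensors IRE1, PERK and ATF6 raise the output of chaperones and degradation genes through the factors XBP1, ATF4 and ATF6. Beta cells make large amounts of proinsulin, a disulfide-bonded precursor, and loss of PERK or wolframin causes diabetes in people and in mice.

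Replicate 1 held 4814 cells with 11012364 UMIs (unique molecular identifiers, each counting 1 molecule) and a median of 2110 UMIs per cell, and replicate 2 held 1093 cells with 12092393 UMIs and a median of 9949. Kept cells of the 2 libraries shared 5 barcodes. The summed level of each type's own markers was highest in that type in both libraries. In the class named delta the beta-cell gene Iapp stood at 39.4% and 42.3% of its level in beta cells, against 1.96% and 6.81% in alpha cells and 5.03% and 9.59% in PP cells, and 1 of its clusters, number 16, had 0 and 39.3 CPM (UMIs per 1000000 UMIs) of Sst. The endothelial class held a second cluster of 12 and 16 cells, and duct markers summed to 4174 and 16848 CPM over the class, beside 12613 and 2613 CPM of endothelial markers. The 12 acinar markers summed to between 4.23 and 181 CPM in every type. Values for delta cells are therefore also given for the cluster led by delta markers alone. Of 18 listed immediate early and dissociation stress genes, 11 were higher in alpha, 11 in delta, 12 in PP and 12 in non-endocrine cells. None was lower, and over all genes 9.11%, 8.78%, 8.89% and 13.6% were higher in the same order. The summed level of the 18 genes was 10268 and 33917 CPM in endothelial, 11607 and 20820 in stellate, 5723 and 9803 in alpha, 4957 and 8293 in delta, 6142 and 14074 in PP and 3571 and 4095 in beta cells. Their part in the differences of the folding genes was not tested.

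The control sequences of these genes and the spliced stretch of Xbp1 show which members hold known elements and what the tables can resolve. ATF6 and XBP1 are known to act through the ER stress response element, ERSE, which is CCAAT, 9 bases of any kind and then CCACG. Promoter sequences from RefSeq on GRCm38.p6 were matched for 36 of the 42 members with 43 start sites, and the 250 bases before each start were searched on both strands. ERSE was present for 10 of the 36 members, and over all genes of the table it was present for 35 of 27025, or 0.13%. The members were listed as genes of this same response, so the difference is a description and no independent test. The related ERSE-II, which is ATTGG, 1 base of any kind and then CCACG, was present for 1 member and for 10 of the 27025 genes, or 0.037%, and overlapped no ERSE match. The element TGACGTG, called UPRE, which XBP1 binds, was present for Hspa5, Txndc5 and Txndc11 and for 499 genes, or 1.85%. The matches below are printed on the strand of the gene, 5′ to 3′, with the element in capitals, so that an element lying on the opposite strand begins with its reverse complement.
Hspa5, chr2:34772020-34772048, plus strand: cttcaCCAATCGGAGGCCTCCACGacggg
Hsp90b1, chr10:86705633-86705661, minus strand: caagcCCAATCGCAAGGAGCCACGcttcg
Pdia6, chr12:17266486-17266514, plus strand: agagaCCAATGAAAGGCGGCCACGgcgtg
Creld2, chr15:88819515-88819543, plus strand: cttctCGTGGCGAGCCTCAATTGGtccac
Dnajc3, chr14:118937822-118937850, plus strand: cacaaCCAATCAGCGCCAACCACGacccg
Calr, chr8:84847070-84847098, minus strand: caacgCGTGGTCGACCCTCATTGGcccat
Canx, chr11:50325795-50325823, minus strand: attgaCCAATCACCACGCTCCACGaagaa
Syvn1, chr19:6046527-6046555, plus strand: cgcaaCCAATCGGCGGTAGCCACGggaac
Derl3, chr10:75893237-75893265, plus strand: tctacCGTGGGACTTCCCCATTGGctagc
Herpud1 (ERSE-II), chr8:94386372-94386392, plus strand: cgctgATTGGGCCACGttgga

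Ero1lb, which had the smallest adjusted p among the members in alpha, delta and PP cells against beta cells, held its ERSE 201 bases before its RefSeq start, on the opposite strand. The stretch chr13:12565633-12565873 on the plus strand of GRCm38.p6 ends where GENCODE begins the gene, and its ERSE, in capitals, begins 192 bases before that start. Hsp90b1 held a second ERSE, which is not printed.
Ero1lb: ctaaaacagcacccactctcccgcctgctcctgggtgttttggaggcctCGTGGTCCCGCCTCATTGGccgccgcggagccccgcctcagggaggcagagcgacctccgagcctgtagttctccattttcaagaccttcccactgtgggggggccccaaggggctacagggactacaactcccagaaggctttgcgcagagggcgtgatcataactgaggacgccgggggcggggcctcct

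Active XBP1 is made after IRE1 cuts 26 bases out of the Xbp1 mRNA. Those bases, chr11:5524282-5524307 on the plus strand, lie in exon 4 of Xbp1-201 and are in capitals in the GENCODE transcript sequence chr11:5524252-5524337.
Xbp1-201: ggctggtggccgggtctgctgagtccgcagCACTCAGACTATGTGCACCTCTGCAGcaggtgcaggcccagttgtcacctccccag
Xbp1-201, Xbp1-203 and Xbp1-204 all carry the 26 bases, and the sequence of Xbp1-202, 987 bases long, does not hold them. Whether Xbp1-202 spans the cut site was not tested, and cut Xbp1 was not separated from uncut Xbp1 here. Of 3608 transcript UMIs of Xbp1, 98.5% were given to Xbp1-201.

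The 42 members together made up a larger share of the UMIs of beta cells, counted after insulin cDNA removal, than of any other type in both libraries. The share of all beta-cell RNA, insulin included, was not measured. They took 0.58% and 0.65% of all UMIs in endothelial cells and 0.797% and 0.671% in stellate cells. In the endocrine types the share was 0.566% and 0.819% in alpha, 1.07% and 1.11% in delta and 0.929% and 1.05% in PP cells, whereas it was 1.58% and 1.67% in beta cells. The libraries did not overlap between beta cells and any other type. Hormone genes took 33.4% and 21.2% of UMIs in alpha cells and 13.3% and 11.6% in beta cells, where insulin cDNA had been removed. Without hormone UMIs in the total the shares were 0.849% and 1.04% in alpha, 1.34% and 1.37% in delta, 1.38% and 1.41% in PP and 1.82% and 1.89% in beta cells. Per cell, among cells with at least 1000 UMIs, the module took a median of 0.531% and 0.748% of UMIs in alpha cluster 1, 0.632% and 0.818% in alpha cluster 9 and 0.877% and 1.07% in PP cells. The median in beta cluster 0 was 1.44% and 1.54%. With hormone UMIs kept in the total, quartiles of alpha and PP cells lay apart from those of beta cells. The upper quartiles of alpha clusters 1 and 9 and of PP cells reached at most 1.05% and 1.13%. The lower quartile of every beta cluster was at least 1.20% and 1.18%. In PP cells hormone genes took 32.6% and 25.9% of UMIs, and per-cell shares without hormone UMIs were not computed. The clusters named delta did not all lie apart from beta cells in this way. Their upper quartiles were 1.14% and 1.09% in cluster 3, 0.825% and 1.04% in cluster 12 and 0.444% and 0.454% in cluster 16. In clusters 7, 8 and 14 they were 1.52% and 0.964%, 1.55% and 1.67%, and 1.72% and 2.12%. For a single gene, a sum cannot tell less RNA per cell from fewer cells that express it.

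**Figure D1:**
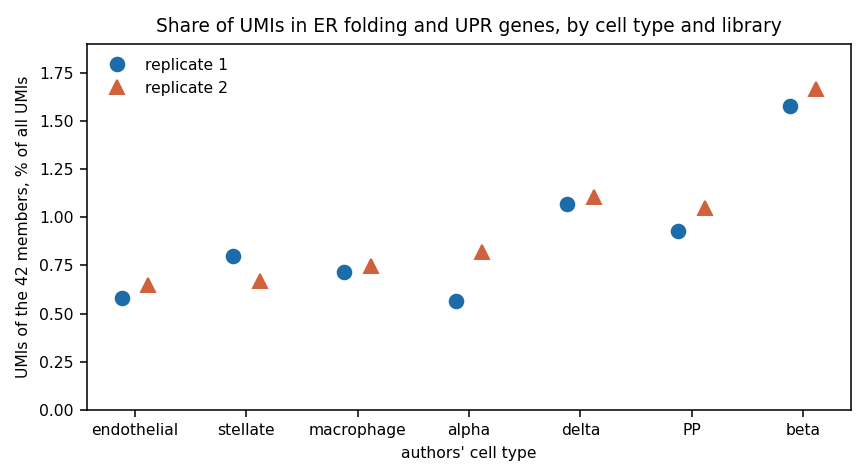
UMIs of the 42 members as a percentage of all UMIs of each authors' cell type (y axis), 1 point per library (circles replicate 1, triangles replicate 2). Beta cells, at 1.58% and 1.67%, lie above every other type, and alpha cells, at 0.566% and 0.819%, lie lowest among the endocrine types.

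Relative to beta cells, members were called lower in alpha, delta and PP cells and none was called higher. Levels below are CPM after TMM scaling, and fold changes are edgeR's log2 ratios with their standard error (SE), called at a Benjamini-Hochberg adjusted p under 0.05 over the 13265 genes tested, which included all 42 members. In alpha against beta cells 22 members were lower and 0 higher, with 9.91% of all genes lower and 9.11% higher. In delta against beta cells 15 were lower and 0 higher, with 5.02% of all genes lower and 8.78% higher. In PP against beta cells 9 were lower and 0 higher, with 8.43% of all genes lower and 8.89% higher. The median log2 fold change of the members was -0.69 in alpha, -0.57 in delta and -0.34 in PP cells, beside 0.02, 0.00 and -0.03 over all genes tested. The 3 comparisons share the beta-cell sums and are not independent of each other. At an unadjusted edgeR p under 0.05, 0 members were higher in alpha, 0 in delta and 2 in PP cells, and DESeq2 called 0 higher in each. Without the library term 12, 2 and 5 members were lower in alpha, delta and PP cells, beside 665, 196 and 573 of the 13265 genes. Without TMM scaling 35, 17 and 23 were lower. All genes then split into 709 higher and 3322 lower in alpha, 1111 and 724 in delta and 659 and 2717 in PP cells. By level alone, 26 members stood higher in beta than in alpha, delta and PP cells in each library, beside 16.3% of all genes tested.

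**Figure D2:**
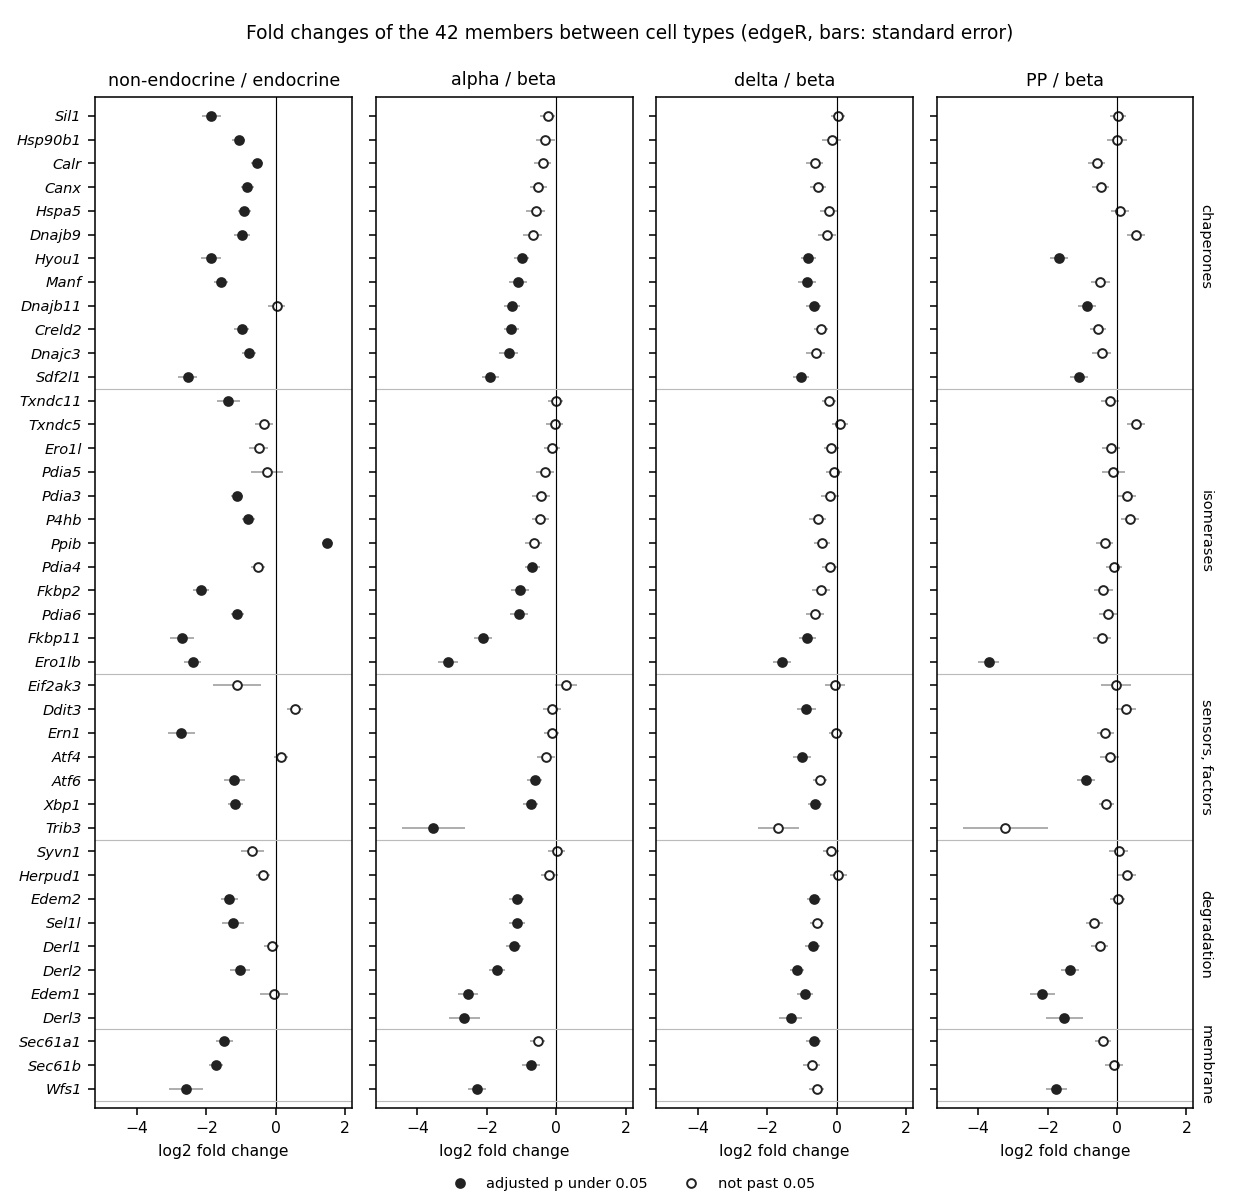
Log2 fold changes of the 42 members by edgeR (x axis) with standard errors, in 4 comparisons, grouped by role from chaperones to membrane proteins. Filled points pass an adjusted p of 0.05. The members that pass by edgeR are 28 lower and 1 higher in non-endocrine cells, 22 lower in alpha, 15 in delta and 9 in PP cells. Derl3, which is among those 28, and Trib3, with 0 and 5 UMIs in non-endocrine cells, are left out of the non-endocrine panel. The points of Trib3 in alpha and PP cells rest on 2 and 1 UMIs.

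Of the 2 ERO1 oxidase genes, 1 was lower in alpha, delta and PP cells than in beta cells. Ero1lb, the ERO1 oxidase enriched in pancreas, had 135 and 234 CPM in alpha, 557 and 498 in delta and 112 and 132 in PP cells, whereas beta cells had 1610.0 and 1525. All beta values lay far above those of the other types, with PP and alpha cells lowest. The log2 fold changes were -3.11 ± 0.28 in alpha (adjusted p = 1.13e-09), -1.57 ± 0.26 in delta (adjusted p = 6.15e-05) and -3.69 ± 0.30 in PP cells (adjusted p = 2.85e-10). Ero1l, the widely expressed ERO1 oxidase, had 62.8 and 61.5 CPM in alpha, 61.8 and 60.0 in delta and 62.7 and 58.0 in PP cells, whereas beta cells had 66.8 and 69.1. Beta values lay slightly above the others, and the fold changes were -0.13 ± 0.22 in alpha (adjusted p = 0.774), -0.16 ± 0.21 in delta (adjusted p = 0.746) and -0.17 ± 0.26 in PP cells (adjusted p = 0.716), so no difference was called.

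Of the 12 oxidases and isomerases, 5 were lower in alpha, 2 in delta and 1 in PP cells. Over all genes 9.91%, 5.02% and 8.43% were lower in the same comparisons, and the PP count was near that share. Fkbp11, a prolyl isomerase of secretory tissues, had 36.0 and 72.2 CPM in alpha, 94.1 and 168 in delta and 159 and 172 in PP cells, whereas beta cells had 185 and 279.9. Alpha cells were lowest, and PP values lay below those of beta cells but close to them in replicate 1. The fold changes were -2.12 ± 0.26 in alpha (adjusted p = 3.74e-07), -0.84 ± 0.24 in delta (adjusted p = 0.0151) and -0.44 ± 0.26 in PP cells (adjusted p = 0.254). Pdia6, a disulfide isomerase, had a log2 fold change of -1.06 ± 0.26 in alpha cells (adjusted p = 0.00358), and Pdia4 had -0.69 ± 0.22 (adjusted p = 0.0245). Fkbp2, another prolyl isomerase, had -1.05 ± 0.27 (adjusted p = 0.005). The classical isomerases P4hb and Pdia3 passed in none of the 3 comparisons, with fold changes between -0.55 ± 0.25 and 0.38 ± 0.25 for P4hb and between -0.43 ± 0.26 and 0.29 ± 0.26 for Pdia3. Pdia5, Txndc5, Txndc11 and Ppib passed in none either.

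Of the 12 chaperones and cochaperones, 6 were lower in alpha, 4 in delta and 3 in PP cells. The shares of all genes lower were 9.91%, 5.02% and 8.43%. Hspa5, the ER Hsp70 known as BiP, had 659 and 925 CPM in alpha, 1036 and 994 in delta and 1142 and 1386 in PP cells, whereas beta cells had 1135 and 1235. Alpha cells were lowest in each library, PP cells were not lower than beta cells in either, and the fold changes were -0.59 ± 0.27 in alpha (adjusted p = 0.127), -0.22 ± 0.26 in delta (adjusted p = 0.707) and 0.09 ± 0.27 in PP cells (adjusted p = 0.87). Hsp90b1, the ER Hsp90, the lectin chaperones Calr and Canx, the BiP exchange factor Sil1 and the J protein Dnajb9 also passed in none of the 3. Their fold changes in alpha cells ran from -0.68 ± 0.26 for Dnajb9 to -0.25 ± 0.22 for Sil1.

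Sdf2l1, a partner of the J protein ERdj3 and a known target of the unfolded protein response, had 73.3 and 147 CPM in alpha, 176 and 218 in delta and 177 and 196 in PP cells, whereas beta cells had 394 and 403. Beta values were the highest in both libraries and did not overlap with any other type. The fold changes were -1.90 ± 0.25 in alpha (adjusted p = 7.51e-07), -1.03 ± 0.23 in delta (adjusted p = 0.00205) and -1.10 ± 0.25 in PP cells (adjusted p = 0.00211). Dnajb11, which encodes ERdj3 itself, had 36.6 and 50.8 CPM in alpha, 57.5 and 76.6 in delta and 41.4 and 78.0 in PP cells, whereas beta cells had 92.4 and 119. Its fold changes were -1.28 ± 0.23 in alpha (adjusted p = 0.000113), -0.66 ± 0.21 in delta (adjusted p = 0.0324) and -0.87 ± 0.26 in PP cells (adjusted p = 0.0177), past the threshold in each.

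Hyou1, a large Hsp70 relative that exchanges nucleotide on BiP, had 64.8 and 119 CPM in alpha, 93.8 and 112 in delta and 53.4 and 60.0 in PP cells, whereas beta cells had 170.4 and 189.7. It was lowest in PP cells, and the fold changes were -0.99 ± 0.22 in alpha (adjusted p = 0.00124), -0.82 ± 0.21 in delta (adjusted p = 0.00736) and -1.66 ± 0.26 in PP cells (adjusted p = 2.36e-05). Manf, a BiP-binding protein that supports beta-cell survival in mice, had 329 and 622 CPM in alpha, 439.6 and 676 in delta and 596 and 849.8 in PP cells, whereas beta cells had 885 and 1111. Within each library beta cells were highest, and the fold changes were -1.11 ± 0.27 in alpha (adjusted p = 0.00284), -0.86 ± 0.26 in delta (adjusted p = 0.0254) and -0.48 ± 0.27 in PP cells (adjusted p = 0.233).

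Creld2 and Dnajc3 passed the threshold in alpha cells and not in delta or PP cells over the whole classes, and the difference between types was not tested. Against beta clusters 0, 2 and 4, the delta cells of cluster 3, which delta markers lead, had lower levels of both, with fold changes of -0.73 ± 0.19 for Creld2 (adjusted p = 0.00228) and -0.73 ± 0.21 for Dnajc3 (adjusted p = 0.00599). Creld2, an ER protein induced by stress, had 56.9 and 85.1 CPM in alpha, 95.3 and 159 in delta and 105 and 130.0 in PP cells, whereas beta cells had 152 and 192. The fold changes were -1.29 ± 0.22 in alpha (adjusted p = 4.08e-05), -0.46 ± 0.20 in delta (adjusted p = 0.146) and -0.54 ± 0.22 in PP cells (adjusted p = 0.101). Dnajc3, the cochaperone p58IPK whose loss causes diabetes in people, had 226 and 261 CPM in alpha, 415 and 419 in delta and 471 and 464 in PP cells, whereas beta cells had 628 and 639, with fold changes of -1.37 ± 0.28 in alpha (adjusted p = 0.000428), -0.60 ± 0.27 in delta (adjusted p = 0.155) and -0.44 ± 0.27 in PP cells (adjusted p = 0.295).

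Of the 8 genes of retrotranslocation and degradation, 6 were lower in alpha, 5 in delta and 3 in PP cells. The shares of all genes lower were 9.91%, 5.02% and 8.43%. Edem1, a mannosidase-like protein that marks misfolded glycoproteins for removal, had 7.85 and 12.8 CPM in alpha, 31.9 and 32.9 in delta and 14.7 and 12 in PP cells, whereas beta cells had 62.8 and 59.2. Alpha and PP values lay far below those of beta cells with delta cells between, and the fold changes were -2.53 ± 0.29 in alpha (adjusted p = 8.74e-08), -0.92 ± 0.22 in delta (adjusted p = 0.00405) and -2.16 ± 0.36 in PP cells (adjusted p = 5.91e-05). Derl2, a channel protein of retrotranslocation, had 33.4 and 49.8 CPM in alpha, 61.5 and 62.5 in delta and 46.7 and 60.0 in PP cells, whereas beta cells had 129.9 and 140.3. Beta values stood above all others, with fold changes of -1.71 ± 0.22 in alpha (adjusted p = 6.60e-07), -1.13 ± 0.20 in delta (adjusted p = 0.000131) and -1.35 ± 0.25 in PP cells (adjusted p = 0.000184).

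The related channel gene Derl1 had 46.5 and 62.6 CPM in alpha, 75.6 and 82.9 in delta and 68.0 and 118 in PP cells, whereas beta cells had 129 and 125, with fold changes of -1.23 ± 0.23 in alpha (adjusted p = 0.00014), -0.69 ± 0.21 in delta (adjusted p = 0.0244) and -0.50 ± 0.24 in PP cells (adjusted p = 0.163). Derl3, the form induced most strongly by stress, rested on few molecules, with 2 and 9 UMIs in alpha, 13 and 46 in delta and 5 and 3 in PP cells, whereas beta cells had 83 and 120. The fold changes were -2.65 ± 0.46 in alpha (adjusted p = 7.77e-05), -1.32 ± 0.33 in delta (adjusted p = 0.00607) and -1.52 ± 0.53 in PP cells (adjusted p = 0.0478). Edem2 was lower in alpha (-1.13 ± 0.22, adjusted p = 0.000228) and delta cells (-0.64 ± 0.20, adjusted p = 0.031), and Sel1l, the partner of the ligase HRD1, in alpha cells (-1.14 ± 0.22, adjusted p = 0.000335). The ligase gene itself, Syvn1, and Herpud1, which recruits it, passed in none, with fold changes in alpha cells of 0.01 ± 0.24 and -0.20 ± 0.24.

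Of the 3 stress sensors, 1 passed the threshold among endocrine cells. Ern1, which encodes IRE1, had 62.8 and 49.2 CPM in alpha, 65.4 and 55.3 in delta and 49.4 and 48.0 in PP cells, whereas beta cells had 61.8 and 60.4, with alpha and delta values overlapping those of beta cells and PP values below them. Its fold changes were -0.13 ± 0.21 in alpha (adjusted p = 0.746), -0.02 ± 0.20 in delta (adjusted p = 0.976) and -0.33 ± 0.25 in PP cells (adjusted p = 0.408). Eif2ak3, which encodes PERK, rested on 26 and 37 UMIs in alpha, 49 and 49 in delta and 14 and 5 in PP cells, whereas beta cells had 89 and 73, with fold changes of 0.29 ± 0.31 in alpha (adjusted p = 0.602), -0.04 ± 0.29 in delta (adjusted p = 0.968) and -0.03 ± 0.43 in PP cells (adjusted p = 0.991). Atf6 had 60.2 and 44.4 CPM in alpha, 62.2 and 52.8 in delta and 50.7 and 34.0 in PP cells, whereas beta cells had 82.4 and 77.3. It was lower in alpha and PP cells and not in delta cells by this threshold, with fold changes of -0.62 ± 0.21 in alpha (adjusted p = 0.0355), -0.48 ± 0.20 in delta (adjusted p = 0.116) and -0.90 ± 0.26 in PP cells (adjusted p = 0.0134).

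Among the transcription factors, Xbp1 had 119 and 128 CPM in alpha, 135 and 131 in delta and 161 and 172 in PP cells, whereas beta cells had 212 and 199. Beta cells were highest in both libraries, and the fold changes were -0.74 ± 0.21 in alpha (adjusted p = 0.0141), -0.63 ± 0.21 in delta (adjusted p = 0.0421) and -0.30 ± 0.22 in PP cells (adjusted p = 0.393). Atf4, the factor translated after PERK acts, had 168 and 298 CPM in alpha, 133 and 148 in delta and 164 and 339.9 in PP cells, whereas beta cells had 304 and 236. Alpha and PP cells were below beta cells in replicate 1 and above them in replicate 2, and delta cells were below in both, with fold changes of -0.30 ± 0.27 in alpha (adjusted p = 0.5), -0.99 ± 0.26 in delta (adjusted p = 0.00945) and -0.21 ± 0.28 in PP cells (adjusted p = 0.664). Ddit3, the factor CHOP, had 100.1 and 97.4 CPM in alpha, 60.7 and 57.6 in delta and 93.4 and 172 in PP cells, whereas beta cells had 123 and 91.1, with delta cells below beta cells in both libraries and PP cells above them in replicate 2, and fold changes of -0.13 ± 0.26 in alpha (adjusted p = 0.81), -0.87 ± 0.26 in delta (adjusted p = 0.0226) and 0.26 ± 0.28 in PP cells (adjusted p = 0.596). Both genes belong to the responses that tissue dissociation can induce, and the part of dissociation in their differences was not tested. Trib3, a target of ATF4 and CHOP, had 2 UMIs in alpha, 15 in delta and 1 in PP cells over both libraries, against 81 in beta cells. Relative to beta cells its ratio was 0.0774 in alpha cells (95% exact counting interval 0.00921 to 0.289), 0.287 in delta cells (0.154 to 0.502) and 0.105 in PP cells (0.00263 to 0.603), intervals that cover counting error only. It was among the members called lower in alpha cells (edgeR adjusted p = 0.00535).

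Among the 3 genes of the membrane, Wfs1, which encodes the ER protein wolframin, had 9.82 and 27.8 CPM in alpha, 55.9 and 67.4 in delta and 21.3 and 34.0 in PP cells, whereas beta cells had 78.7 and 104. Beta and delta cells were high and alpha and PP cells low, with fold changes of -2.29 ± 0.26 in alpha (adjusted p = 7.51e-08), -0.57 ± 0.21 in delta (adjusted p = 0.0745) and -1.75 ± 0.30 in PP cells (adjusted p = 0.000101). Of the channel genes, Sec61b had -0.73 ± 0.26 in alpha cells (adjusted p = 0.0484) and Sec61a1 had -0.65 ± 0.22 in delta cells (adjusted p = 0.0417). Sec61b and Fkbp2 were higher in replicate 2 than in replicate 1 in all 6 types, by 1.19 and 0.70 log2 units in beta cells. Their levels were therefore compared only within a library. Sdf2l1, Creld2, Derl2, Edem2 and Wfs1 were also higher in replicate 2 in all 6 types, by 0.03 to 0.41 log2 units in beta cells.

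**Figure D3:**
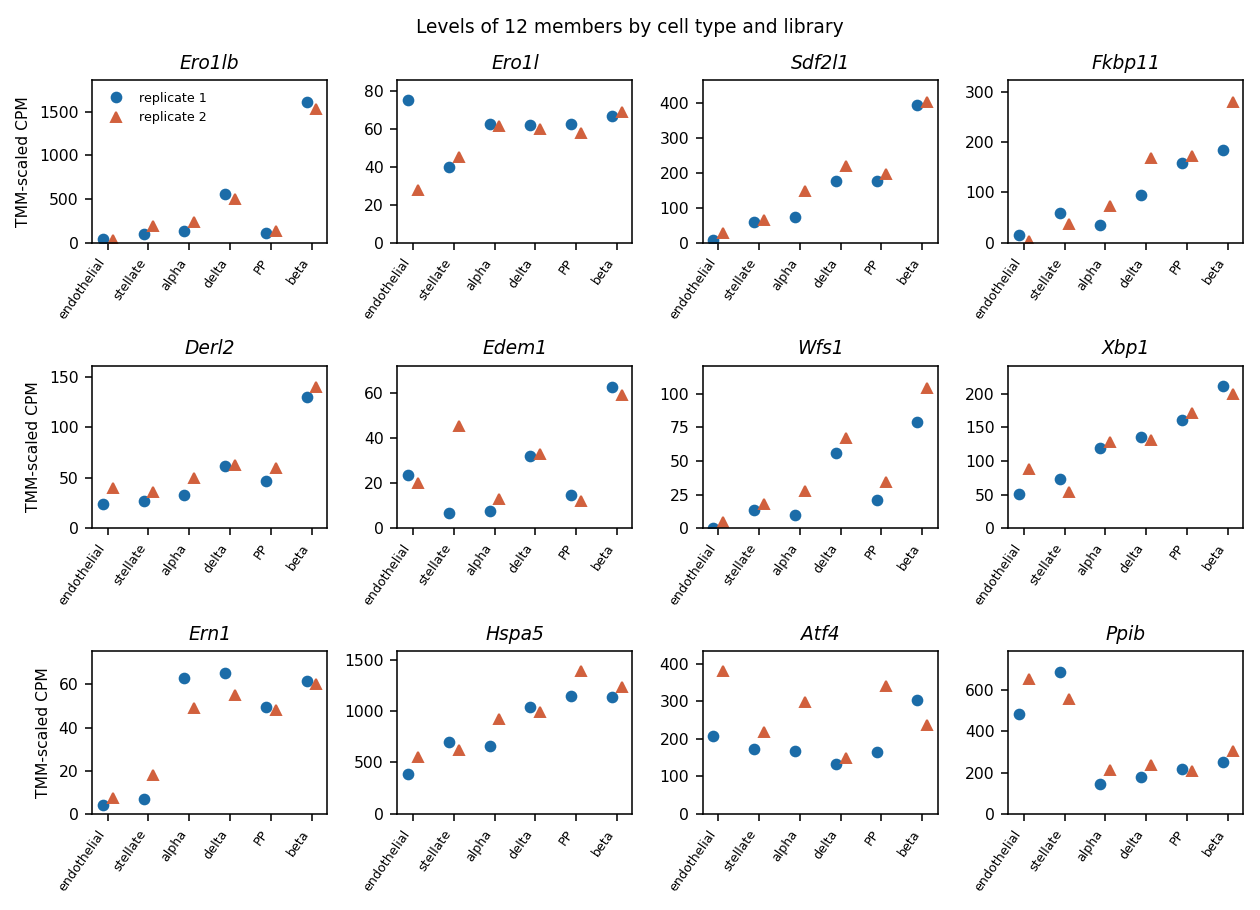
Levels of 12 members in TMM-scaled CPM (y axes, linear, from 0) by authors' cell type, 1 point per library. Ero1lb stands at 1610.0 and 1525 CPM in beta cells and at 557 and 498 in delta cells, the next highest type, Ern1 lies between 48.0 and 65.4 CPM in the endocrine types, and Ppib lies above every endocrine value in endothelial and stellate cells.

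The level of Ero1lb was set beside that of Iapp. Ero1lb in CPM of all UMIs stood at 6.16% and 11.6% of its beta level in alpha cells, 35.2% and 30.4% in delta and 5.25% and 6.56% in PP cells, beside the Iapp shares of 1.96% and 6.81%, 39.4% and 42.3%, and 5.03% and 9.59% in the same types. What part of the Ero1lb molecules came from beta cells was not tested.

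Taking only the delta cells of cluster 3, which delta markers lead, against beta clusters 0, 2 and 4 raised the number of members lower in delta cells to 27, with 0 higher, of 41 tested, and calls over all genes rose as well, to 10.5% lower and 11.1% higher. Ero1lb then had 142 and 257 CPM in delta cells, against 1709.9 and 1647 in beta cells, a fold change of -3.13 ± 0.23 (edgeR adjusted p = 2.64e-23). Derl3 had -2.60 ± 0.50, Derl2 -1.49 ± 0.21, Edem1 -1.48 ± 0.26 and Sdf2l1 -1.38 ± 0.20, each further below 0 than over the whole class. Atf4 had 94.5 and 128 CPM in these delta cells, against 312 and 246 in beta cells, with a fold change of -1.39 ± 0.22 (edgeR adjusted p = 1.07e-07). The 12 members lower here and not over the whole class were Calr (-0.71 ± 0.21, adjusted p = 0.00613), Canx (-0.61 ± 0.20, adjusted p = 0.0186), P4hb (-0.65 ± 0.21, adjusted p = 0.0149), Ppib (-0.72 ± 0.21, adjusted p = 0.00479), Pdia6 (-0.75 ± 0.21, adjusted p = 0.00426), Atf6, Creld2, Dnajc3, Fkbp2, Sec61b, Sel1l and Wfs1. Of the abundant chaperones and isomerases, Hspa5, Hsp90b1 and Pdia3 did not pass, nor did Ern1 and Herpud1, at -0.06 ± 0.22, 0.08 ± 0.23, 0.06 ± 0.22, 0.14 ± 0.21 and 0.28 ± 0.19. In the same fit Dnajb9, Ppib and Sec61a1 were also lower in alpha cells, beside 13.2% of all genes, Calr and Sel1l were also lower in PP cells, beside 12.2%, and Dnajb9 was higher in PP cells (0.56 ± 0.21, adjusted p = 0.0362), beside 12.6%.

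Outside the endocrine lineage most chaperones were lower, Hspa5, Hsp90b1, Calr and Canx among them. In endothelial and stellate cells against the 4 endocrine types 28 members were lower and 1 higher, with 17.1% of all genes lower and 13.6% higher, and with a median log2 fold change of -1.08 beside -0.25 over all genes tested. By role, 11 of 12 chaperones, 7 of 12 oxidases and isomerases, 3 of 7 sensors and factors, 4 of 8 degradation genes and all 3 membrane genes were lower. Hspa5 had 385 and 555 CPM in endothelial and 699.9 and 616 in stellate cells, below every endocrine value save that stellate cells of replicate 1 lay above alpha cells of replicate 1, with a fold change of -0.91 ± 0.18 (adjusted p = 0.000239). Sdf2l1 had 7.94 and 27.6 CPM in endothelial and 60.0 and 63.5 in stellate cells, below all endocrine values, with -2.54 ± 0.27 (adjusted p = 1.23e-08). Fkbp11 had -2.70 ± 0.34 and Fkbp2 -2.15 ± 0.23.

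The sensor gene Ern1 had 3.97 and 7.53 CPM in endothelial and 6.67 and 18.1 in stellate cells, 7 UMIs in all, far below every endocrine value, with a fold change of -2.72 ± 0.39 (adjusted p = 2.75e-06). Atf4, by contrast, had 207 and 381 CPM in endothelial and 173 and 218 in stellate cells, within the endocrine range or above it, with 0.14 ± 0.21 (adjusted p = 0.655). Derl3 had 0 UMIs in endothelial and stellate cells and 281 in the endocrine types, which puts it at least 3.85-fold lower against a floor of 3 UMIs over the group. Setting Derl3 at that bound left the median of the members at -1.08. The bound itself lies below that median, so this step could not have moved it.

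The endothelial class of replicate 2 was mostly the cluster with duct markers, and some values moved when only clusters led by their own markers were kept, for delta and beta cells as well. Then 28 members were lower and 2 higher of 41 tested, beside 20.4% and 13.5% of all genes. Ern1 had 0 and 0 UMIs in endothelial cells and 1 and 2 in stellate cells, so its 4 endothelial UMIs had all come from the other cluster. The fitted fold change became -5.81 ± 0.93 (adjusted p = 1.01e-07), a size that rests on sums at 0. Wfs1, with 4 UMIs in all and 0 of them in endothelial cells, had -5.05 ± 1.08, against -2.59 ± 0.48 over the whole classes. Herpud1 was lower, at -1.10 ± 0.21 (adjusted p = 1.00e-05), against -0.36 ± 0.20 over the whole classes (adjusted p = 0.19). Ddit3 was higher, at 0.76 ± 0.22 (adjusted p = 0.00379), against 0.55 ± 0.23 over the whole classes (adjusted p = 0.0751). Fkbp11 had -1.93 ± 0.33, Fkbp2 -2.99 ± 0.24 and Ero1lb -1.76 ± 0.25, against -2.70 ± 0.34, -2.15 ± 0.23 and -2.39 ± 0.25 over the whole classes. The call of Derl3 was lost (adjusted p = 0.0796).

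The members with an ERSE or ERSE-II were set beside those without, with no test of the difference. Of the 11 with such an element 5 were lower in alpha, 2 in delta, 2 in PP and 9 in non-endocrine cells. Of the 25 matched members with neither, 13, 9, 5 and 14 were lower in the same comparisons, beside 9.91%, 5.02%, 8.43% and 17.1% of all genes. The median log2 fold changes were -0.59, -0.54, -0.44 and -0.91 with an element and -0.69, -0.57, -0.21 and -1.11 without.

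The member higher in non-endocrine cells was Ppib, which encodes cyclophilin B, a prolyl isomerase known for its part in collagen folding. It had 485 and 652 CPM in endothelial and 687 and 553 in stellate cells, against 143 and 211 in alpha, 177 and 236 in delta, 219 and 206 in PP and 248 and 302 in beta cells. The groups did not overlap, and the fold change was 1.48 ± 0.16 (adjusted p = 1.33e-08). These sums rest on 207722 and 353271 UMIs of endothelial and 130176 and 99232 UMIs of stellate cells, so genes with few UMIs there are known only roughly. Ero1lb stood at 2.75% and 2.24% of its beta level in endothelial cells and at 6.59% and 12.9% in stellate cells, beside the Iapp shares of 2.94% and 0.98%, and 6.21% and 5.36%.

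Most members were read as 1 transcript. Of 41 members with at least 50 transcript UMIs, 27 had at least 90% of them in 1 GENCODE M21 transcript, among them P4hb, Dnajc3 and Sdf2l1 with 100%. The transcript tables held fewer molecules than the gene tables for some members. Transcript UMIs came to 50% or less of the gene UMIs for 9 members, and to 2.72% for Edem1, 12.4% for Canx, 12.4% for Sel1l, 14.6% for Hyou1, 19.7% for Wfs1 and 34.3% for Hspa5. Shares of transcripts are therefore shares of the assigned molecules, and how the others would divide was not tested.

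Transcript use was compared with edgeR's diffSpliceDGE, with a Simes p per gene adjusted over all genes tested. Of 19 members tested in non-endocrine against endocrine cells 1 was called, beside 0.965% of all genes tested. Hspa5-202 held 47.4% and 56.4% of Hspa5 transcript UMIs in endothelial and stellate cells together, of 76 and 140 UMIs, against 27.4% and 26.1% in the endocrine types. The difference was 25.1 ± 7.28 percentage points (SD, n = 2), with a gene adjusted p of 0.0356 and a transcript adjusted p of 0.0383. It was not called without the library block. Hspa5-201 and Hspa5-202 are coding transcripts on the plus strand at chr2:34771970-34777547 and chr2:34772095-34776531 of GRCm38. The first exon annotated for Hspa5-202 runs on through the first intron of Hspa5-201, and its last exon ends earlier. Among endocrine types the share was 25.9% and 25.6% in alpha, 32.4% and 26.9% in delta, 23.6% and 28.0% in PP and 26.2% and 25.2% in beta cells.

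In delta against beta cells 1 of 19 members tested was called, beside 0.798% of all genes tested. Atf4-203, an annotated retained-intron transcript at chr15:80255523-80257541 on the plus strand, held 14.1% and 10.8% of Atf4 transcript UMIs in delta cells, against 3.33% and 6.40% in beta cells. The difference was 7.62 ± 4.48 points (SD, n = 2), with a gene adjusted p of 0.0216 and a transcript adjusted p of 0.0241. It was not called without the library block either, and its size differed more than 2-fold between the libraries, at 10.8 and 4.45 points.

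None of 17 members tested was called in alpha cells, beside 0.991% of all genes tested, and none of 18 in PP cells, beside 0.687%. By diffSpliceDGE, 4 members in alpha and 1 in PP cells had an unadjusted gene p under 0.05. Several of the largest shifts pointed the same way in both libraries and still missed the threshold. Sec61a1-204, an annotated retained-intron transcript, held 37.5% and 46.1% in PP cells of 88 and 89 UMIs, against 24.2% and 18.4% in beta cells (gene adjusted p = 0.312). Fkbp2-202, which differs from Fkbp2-201 in its first exons, held 51.3% and 57.0% in alpha cells, against 64.8% and 65.4% in beta cells (gene adjusted p = 1). Derl2-205 held 24.2% and 32.4% in delta cells, against 12.4% and 15.5% in beta cells (gene adjusted p = 0.962). Ern1-201 held 58.8% and 81.2% in delta cells, against 79.5% and 85.6% in beta cells (gene adjusted p = 1).

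**Figure D4:**
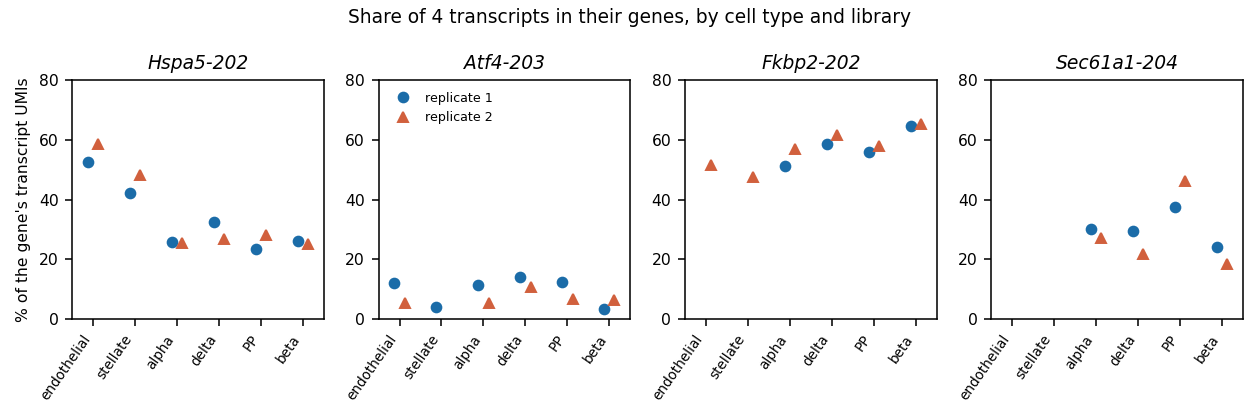
Share of 4 transcripts in the transcript UMIs of their genes (y axes, percent) by cell type, 1 point per library where the gene had at least 20 transcript UMIs. Hspa5-202 lies between 42.1% and 58.6% in endothelial and stellate cells and between 23.6% and 32.4% in the endocrine types, and Sec61a1-204 is highest in PP cells, at 37.5% and 46.1%, among the types with points.

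Among the authors' 4 beta clusters the module was highest in cluster 2. The members took 1.80% (95% exact binomial interval 1.77% to 1.82%) and 2.11% (2.08% to 2.14%) of UMIs there, against 1.48% (1.46% to 1.49%) and 1.58% (1.57% to 1.60%) in cluster 0, 1.53% (1.50% to 1.56%) and 1.43% (1.40% to 1.46%) in cluster 4 and 1.56% (1.53% to 1.59%) and 1.63% (1.60% to 1.67%) in cluster 5. These intervals cover counting error only. The clusters were made from these counts, so what follows is a description with no test. Levels within clusters are plain CPM.

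In cluster 2, 28 of 41 members with at least 50 UMIs in the beta cells of each library lay above the other beta cells in both, beside 27.8% of 8839 such genes. The median ratio of the members was 1.13 and 1.26, against 0.99 and 0.981 over all these genes. Derl3 alone was at least 1.5-fold higher in each library, beside 0.656% of genes, with 39.6 and 54.6 CPM in cluster 2, against 6.91 and 20.9 in the other beta cells. Sdf2l1 had 560.3 and 676 CPM, against 383 and 377 in the other beta cells, and Manf had 1220.0 and 1811 CPM, against 872 and 1054. Taken by itself replicate 1 had 1 member at 1.5-fold or more, Derl3, beside 2.48% of genes. Replicate 2 had 7, namely Creld2, Derl3, Fkbp11, Manf, Pdia5, Pdia6 and Sdf2l1, beside 4.45%.

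In cluster 5 Ero1lb had 869.8 and 926 CPM, against 1884 and 1772 in the other beta cells. Ddit3 had 83.9 and 58.1 CPM in cluster 5, against 141 and 105 in the others, and Edem1 had 45.4 and 30.6 CPM, against 71.7 and 69.7. These 3 were the members at least 1.5-fold lower there, beside 3.94% of genes, and none was higher, beside 2.61%. Cluster 4 has the fewest UMIs per cell of the beta clusters, with medians of 1510.5 and 6883.5. There Creld2 and Derl3 were at least 1.5-fold lower, beside 2% of genes, and Eif2ak3 was higher, beside 5.15%. At any size 18 of 41 members lay below the other beta cells in cluster 4 in both libraries, beside 29.3% of genes. In cluster 0 Derl3 alone was lower, beside 1.66%, and none was higher, beside 0.532%. At any size 26 of 41 lay below the other beta cells in cluster 0 in both libraries, beside 40.4% of genes.

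**Figure D5:**
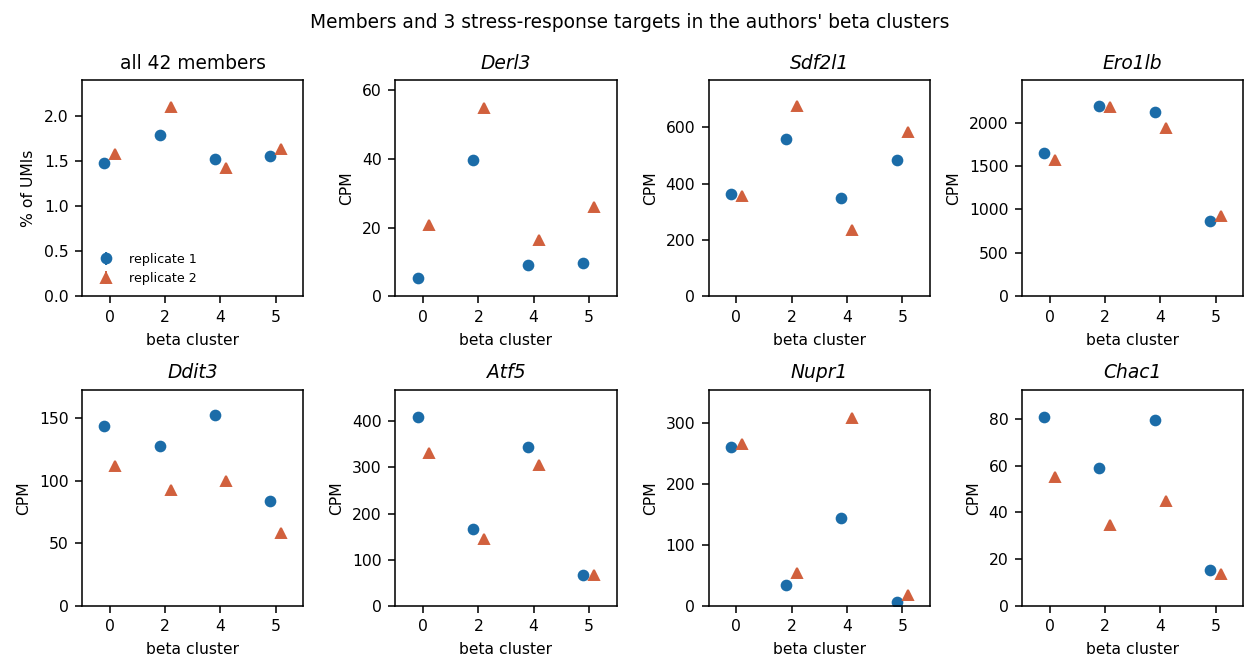
Share of UMIs in the 42 members (first panel, percent, with 95% exact binomial intervals that are mostly smaller than the points) and CPM of 4 members and 3 targets of the integrated stress response in beta clusters 0, 2, 4 and 5, 1 point per library. Derl3 and the module are highest in cluster 2, whereas Atf5, Nupr1 and Chac1 are highest in clusters 0 and 4.

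Targets of PERK and ATF4 in the integrated stress response formed a separate list. Of 27 tested, 14 were lower and 3 higher in alpha cells, 14 lower and 1 higher in delta cells, 14 lower and 2 higher in PP cells, and 6 lower and 5 higher in non-endocrine cells. Over all genes 9.91% were lower and 9.11% higher in alpha, and 5.02% and 8.78% in delta cells. The shares were 8.43% and 8.89% in PP, and 17.1% and 13.6% in non-endocrine cells. Atf5, an ATF4 target that is itself a factor, had 19.6 and 30.5 CPM in alpha, 62.2 and 51.6 in delta and 25.4 and 26.0 in PP cells, whereas beta cells had 269 and 233. Its fold change was -3.29 ± 0.25 in alpha (adjusted p = 3.41e-11), -2.15 ± 0.22 in delta and -3.30 ± 0.29 in PP cells. The stress-induced regulator Nupr1 had 2.62 and 8.56 CPM in alpha, 17.7 and 24.8 in delta and 9.34 and 4.00 in PP cells, whereas beta cells had 140.4 and 180.0, with -4.78 ± 0.44 in alpha cells (adjusted p = 1.49e-09). Atf3, a factor that dissociation also induces, was higher in alpha (6.11 ± 0.59, adjusted p = 3.77e-09), delta (3.86 ± 0.60, adjusted p = 1.93e-05) and PP cells (6.35 ± 0.60, adjusted p = 4.43e-09), and its level in beta cells was 1.35 and 9.30 CPM.

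Within beta cells, 7 of 24 genes of the same list were at least 1.5-fold higher and 1 lower in cluster 0 than in the other beta cells in each library, beside 0.532% and 1.66% of genes. In cluster 2, where the folding genes were highest, 6 were lower and 0 higher, beside 1.26% and 0.656%. In cluster 4, 1 was higher and 0 lower, beside 5.15% and 2%, and in cluster 5, 12 were lower and 0 higher, beside 3.94% and 2.61%. Atf5 had 408.6 and 332 CPM in cluster 0, 166 and 144 in cluster 2, 344 and 306 in cluster 4 and 67.4 and 65.7 in cluster 5. Nupr1 had 261 and 265 CPM in cluster 0, 33.8 and 54.6 in cluster 2, 145 and 307 in cluster 4 and 6.88 and 18.3 in cluster 5.

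Of 43 further folding and quality-control genes tested, 9 were lower and 7 higher in alpha, 5 and 5 in delta, 4 and 15 in PP, and 10 and 10 in non-endocrine cells. Over all genes 9.91% were lower and 9.11% higher in alpha, and 5.02% and 8.78% in delta cells. The shares were 8.43% and 8.89% in PP, and 17.1% and 13.6% in non-endocrine cells. Rcn3, a calcium-binding protein of the secretory pathway, had 141 and 171 CPM in alpha, 54.0 and 76.4 in delta and 476 and 436 in PP cells, whereas beta cells had 2.20 and 4.23, with fold changes of 5.61 ± 0.36, 4.36 ± 0.36 and 7.16 ± 0.37 (adjusted p = 1.09e-12, 1.90e-10 and 6.79e-14). Prdx4, an ER peroxiredoxin that can oxidise disulfide isomerases as ERO1 does, had 100.1 and 138 CPM in alpha, 115 and 137 in delta and 299 and 289.9 in PP cells, whereas beta cells had 41.1 and 33.4. Its fold changes were 1.66 ± 0.23 in alpha, 1.75 ± 0.22 in delta and 2.98 ± 0.24 in PP cells (adjusted p = 2.31e-06, 1.03e-06 and 1.80e-10). Kdelr3, a retrieval receptor of ER proteins, was higher in alpha (2.50 ± 0.39), delta (1.98 ± 0.37) and PP cells (4.89 ± 0.34), and Nucb2, the precursor of nesfatin, was lower in alpha cells (-1.61 ± 0.23, adjusted p = 5.08e-06).

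Of 25 further translocon, signal peptidase and targeting genes, 14 were lower and 1 higher in alpha, 6 and 0 in delta, 4 and 0 in PP, and 13 and 0 in non-endocrine cells. Sec11c, a catalytic subunit of signal peptidase, had 167 and 262 CPM in alpha, 347 and 450.3 in delta and 396 and 456 in PP cells, whereas beta cells had 716 and 739, with -1.79 ± 0.24 in alpha cells (adjusted p = 1.45e-06). Of 12 oligosaccharyltransferase genes, which add N-glycans to entering chains, 5 were lower and 0 higher in alpha, 0 and 0 in delta, 0 and 1 in PP and 9 and 1 in non-endocrine cells, with Magt1 at -0.88 ± 0.22 in alpha cells (adjusted p = 0.00403). Of 24 other degradation genes, 3 were lower and 0 higher in alpha, 1 and 0 in delta, 4 and 2 in PP and 8 and 0 in non-endocrine cells, with Selenos at -0.96 ± 0.23 in alpha cells (adjusted p = 0.00299). At an unadjusted edgeR p under 0.05, 5 oligosaccharyltransferase genes were lower in delta and 0 in PP cells. Of 21 further sensors and factors 2 were lower and 1 higher in alpha, 0 and 0 in delta, 1 and 2 in PP and 2 and 1 in non-endocrine cells, with Creb3l1 at -2.92 ± 0.46 in alpha cells (edgeR adjusted p = 1.87e-05). Over all genes 9.91%, 5.02%, 8.43% and 17.1% were lower in alpha, delta, PP and non-endocrine cells. In alpha cells the lower counts of the other degradation genes and of the further sensors and factors lay near that share.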

How the data were processed

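The authors deposited raw UMI counts of genes and of annotated transcripts in each cell, in tables marked as a subset, and cell tables naming the library and cluster of each cell. Per the submitters' processing notes the genome build was mm10 and Seurat was used. The aligner and counter, and whether strand was used, are not given in the sources used here. Only barcodes in the authors' merged cell table were kept (4814 of 6395 and 1093 of 2124), against a target of 4000 cells per sample in the labels. Of 7 samples in the labels, the 2 with tables were analysed here. The members and gene lists were chosen with earlier results of these data known.

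Each library gave 1 sum of UMIs for each of 6 authors' types, every one of 20 cells or more. All 12 sums entered 1 edgeR 4.0.16 model with TMM scaling, filterByExpr, quasi-likelihood tests and Benjamini-Hochberg adjustment at 0.05. The model held cell type and library. The library is a block because each library gives every type, and library deviations correlated at 0.0879 to 0.474 over 15 pairs of types. Macrophages (62 and 7 cells) were described only. For the non-endocrine comparison the endothelial and stellate coefficients were averaged, as were those of the 4 endocrine types.

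Transcripts, joined to genes through GENCODE M21, were kept from 10 UMIs and 5% of their gene in the cells compared, and were tested with diffSpliceDGE. Beta clusters were compared as CPM with no test. Per-library values were named for up to 12 members past the threshold per comparison by size and for Ern1, Eif2ak3, Atf6, Xbp1, Atf4, Ddit3, Hspa5, Ero1l and Ero1lb, up to 4 genes of each list by adjusted p, and transcripts of genes that had 50 UMIs or more in both groups. Alternatives were DESeq2 1.42.0, other scalings, filters, thinning, clusters and doublet removal. Scrublet in scanpy 1.11.5 called 7 cells (0.145%) and 16 cells (1.46%), so the 6% of cells with the highest scores were left out instead. Scripts were tested on simulated data before use.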

Additional observations from a re-analysis of the deposited data

How the results depend on the processing

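The median log2 fold change of the members stayed below 0 in every comparison and setting run. Without TMM scaling, where the median of all genes was -0.39 in alpha and -0.41 in PP cells, the members' medians were -1.10 in alpha, -0.61 in delta, -0.75 in PP and -0.78 in non-endocrine cells, with 35, 17, 23 and 24 members lower and 2 higher in non-endocrine cells. All genes then split into 709 higher and 3322 lower in alpha and 659 and 2717 in PP cells, beside 1208 and 1314, and 1179 and 1118, with TMM. In delta cells 1111 genes were then higher and 724 lower, and in non-endocrine cells 2269 and 1416. Without the replicate block 12 members were lower in alpha, 2 in delta, 5 in PP and 24 in non-endocrine cells, all of them among those lower with it. Of the 13265 genes 665, 196, 573 and 1914 were then lower in the same order. No member's transcripts were called in any comparison without the block (0 in delta and 0 in non-endocrine cells). Over all genes tested for transcripts 0.333% were called in delta and 0.564% in non-endocrine cells. Sums thinned to equal totals, which left 31 members tested, gave 4, 1, 2 and 17 lower, 2 higher in non-endocrine cells, and medians of -0.52 in delta and -0.85 in non-endocrine cells. Of the 3246 genes tested there, 85, 26, 96 and 564 were lower, and 764 were higher in non-endocrine cells. In delta cells DESeq2 called 9 lower and the clusters from transcripts 6 (median -0.45), and doublet removal gave a median of -0.66. Over all genes DESeq2 called 355 of 13265 lower in delta cells, and the clusters from transcripts gave 582 of 13273. Keeping only the clusters that their own markers lead, 27 were lower in delta cells (median -0.71) with the transcripts of 2 genes called, Atf4 and Ero1lb, 1 was higher in PP cells (Dnajb9) and 2 in non-endocrine cells (Ppib and Ddit3). Over all genes 10.5% were then lower in delta, 12.6% higher in PP and 13.5% higher in non-endocrine cells. For transcripts 0.579% of all genes tested were called in delta cells. At least 50 UMIs in each library gave a median of -0.52 in delta and -0.93 in non-endocrine cells with 2 higher there, beside 1237 of 11546 genes. In non-endocrine cells DESeq2 gave a median of -0.92 and no filter -1.16.

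With 1 library left out no residual degrees of freedom remain, so counts of members could not be tested. The medians within single libraries ran from -0.89 to -0.51 in alpha, from -0.62 to -0.56 in delta, from -0.38 to -0.25 in PP and from -0.95 to -0.88 in non-endocrine cells. Among the beta clusters, a 2-fold threshold left 0 members lower in clusters 0, 4 and 5, 0 higher in cluster 4, and Derl3 in cluster 2. TMM-scaled CPM gave 4 lower in cluster 4. At least 200 UMIs kept 38 members, without Derl3 and Eif2ak3, so the calls of these 2 genes could not recur. That setting left 0 lower in cluster 0, 0 higher in clusters 2 and 4, and 1 lower in cluster 4. Thinned cells, with 29 members counted, left 0 lower in cluster 0, 0 higher in clusters 2 and 4 and 1 lower in cluster 5. In single libraries cluster 0 had 1 to 2 lower, cluster 2 had 1 to 7 higher, cluster 4 had 3 to 4 higher and 3 to 7 lower, and cluster 5 had 1 higher and 3 to 5 lower. Over all genes 5.58% to 5.79% were then lower in cluster 0 and 2.48% to 4.45% higher in cluster 2. In cluster 4 the shares were 11.6% to 19.2% higher and 6.21% to 10.5% lower. In cluster 5 they were 7.10% to 8.44% higher and 9.73% to 13.6% lower. The cause of these changes was not tested, apart from the smaller number of UMIs and genes in the thinned and filtered settings. No call of a single member changed sign.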

Other observations

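Macrophages, with 62 and 7 cells, entered no test. Their module share was 0.717% and 0.745% of UMIs, Iapp stood at 12.4% and 3.71% of its beta level, and Ero1lb at 15.2% and 10.8%. Within the class named delta the share differed between clusters. It was 0.96% and 0.965% in cluster 3, which delta markers lead, 1.38% and 1.50% in cluster 8, which carries Sst at 57623 and 44416 CPM with Iapp at 83953 and 67521 CPM, 1.45% and 1.89% in cluster 14, and 0.406% and 0.407% in cluster 16, where hormone genes took 0.272% and 0.109% of UMIs. In alpha cells the share was 0.551% and 0.81% in cluster 1 and 0.64% and 0.841% in cluster 9.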
